A study of Homo sapiens with 21 samples.

Results

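IL6, LIF, IL1B, CXCL8, CXCL1, CXCL2, CXCL3, CCL2, NFKBIA and TNFAIP3 are inflammatory cytokines and feedback genes of the NF-κB pathway, and they were taken by name as 10 of the 28395 genes in the count table. Of these, 9 passed the filter on low counts and were among the 16036 genes tested, while CXCL1 did not. RNA was sequenced from Hs578T cells, an established triple-negative breast cancer (TNBC) cell line, labelled as wild type, at 8 h of treatment, and the 21 libraries form 7 groups of 3 replicates. The groups received DMSO as vehicle, 0.1 µM THZ531, 3.16 µM lapatinib, 1 µM nilotinib, 0.1 µM THZ531 with 3.16 µM lapatinib, 0.1 µM THZ531 with 1 µM nilotinib, or 1 µM THZ531. THZ531 is a covalent inhibitor of CDK12 and CDK13, which phosphorylate RNA polymerase II during elongation. Lapatinib inhibits EGFR and HER2, and nilotinib inhibits BCR-ABL. The comparisons ask how a low dose of THZ531 combined with either tyrosine kinase inhibitor differs from each agent alone and from a higher dose of THZ531. No cytokine was added to the medium according to the labels, so the values describe basal transcripts of 1 cell line.

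NF-κB dimers such as RELA with NFKB1 are held in the cytoplasm by IκB proteins. Receptors for TNF, interleukin 1 or microbial products activate the IκB kinases, which mark IκB for degradation, and the freed dimers bind κB sites and induce cytokine and chemokine genes. NFKBIA, which encodes IκBα, and TNFAIP3, which encodes the ubiquitin editor A20, are induced by the same factor and switch it off again. Many of these transcripts carry AU-rich elements and are degraded fast, and TNBC lines of mesenchymal type are known for basal secretion of IL6 and CXCL8.

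The promoter sequences show motifs that some of these genes share. RefSeq promoters of GRCh38.p14 matched 8 of the 10 genes, and 60 bases are given for each, from base -99 to base -40 of the RefSeq start, on the strand of the gene. Capitals mark matches of the 10-letter κB consensus on either strand, which can overlap each other and the shorter motif GGAATTTCC.
IL6 (chr7:22727101-22727160, plus strand): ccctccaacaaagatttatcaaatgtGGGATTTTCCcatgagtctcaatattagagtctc
IL1B (chr2:112836819-112836878, minus strand): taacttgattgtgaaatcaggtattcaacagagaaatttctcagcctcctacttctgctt
CXCL8 (chr4:73740470-73740529, plus strand): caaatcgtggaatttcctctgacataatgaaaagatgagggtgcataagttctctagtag
CXCL1 (chr4:73869294-73869353, plus strand): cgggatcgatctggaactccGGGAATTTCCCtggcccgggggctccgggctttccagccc
CXCL2 (chr4:74099235-74099294, minus strand): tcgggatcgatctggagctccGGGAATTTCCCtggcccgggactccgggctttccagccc
CXCL3 (chr4:74038729-74038788, minus strand): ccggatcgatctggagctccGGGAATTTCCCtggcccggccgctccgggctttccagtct
NFKBIA (chr14:35404789-35404848, minus strand): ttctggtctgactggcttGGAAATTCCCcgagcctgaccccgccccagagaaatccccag
TNFAIP3 (chr6:137867160-137867219, plus strand): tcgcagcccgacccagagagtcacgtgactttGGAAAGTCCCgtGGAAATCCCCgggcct

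In whole promoters of 300 bases, the κB consensus stood in 6 of the 8 genes, beside 11.3% of all 35116 RefSeq promoters of that length. The motif GGAATTTCC was found in 5 of the 8 on either strand, beside 0.461% of all promoters, and CXCL8 holds it without a full match of the consensus. TGANTCA, the core bound by AP-1, stood in 1 of the 8, that of CXCL8, beside 7.71% of all. The promoter of IL1B held none of these motifs. The 60 bases of CXCL1 and CXCL2 were 95% identical, and they were 90% and 91.7% identical to those of CXCL3. These matches are a description of letters, and the RefSeq start used for TNFAIP3 lies inside the span of the gene given by RefSeq. In the GENCODE v44 annotation, all 60 bases given for CXCL3 lie in an exon of a CXCL3 transcript. Exons of their own genes also cover bases 47 to 60 given for IL6, 50 to 60 for CXCL8 and 55 to 60 for TNFAIP3. CCL2 and LIF are named only.

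In the RefSeq annotation, CXCL8 (chromosome 4, 73740569 to 73743716), CXCL1 (73869393 to 73871308), CXCL3 (74036589 to 74038689) and CXCL2 (74097040 to 74099195) lie together on chromosome 4. CCL2 lies on chromosome 17 (34255285 to 34257203), IL6 on chromosome 7 (22727200 to 22731998), LIF on chromosome 22 (30240453 to 30246759) and IL1B on chromosome 2 (112829751 to 112836779). NFKBIA lies on chromosome 14 (35401513 to 35404749) and TNFAIP3 on chromosome 6 (137866349 to 137883312). The libraries were not stranded, so reads of a gene and of a partner on the opposite strand cannot be told apart. The span of IL6 is overlapped by STEAP1B, which had a mean of 1880 counts in DMSO, and that of TNFAIP3 by WAKMAR2, which never exceeded 16 counts. LIF is overlapped by LIF-AS1 and LIF-AS2, and IL6 also by IL6-AS1, and none of these noncoding genes is in the count table. The longest coding transcripts of CXCL1, CXCL2, CXCL3 and CXCL8 share no run of 100 bases, the read length, with transcripts of another CXCL gene. Their other transcripts were not checked.

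The libraries held 97612207 to 112229052 counts each. Markers of mesenchymal breast cancer cells were high, with VIM at 6390 to 10100 CPM (counts scaled to a fixed library total with TMM normalization), while PGR, the progesterone receptor, reached at most 4 counts and ESR1 at most 0.502 CPM. KRT18, a luminal keratin, was detected at 83.5 to 161 CPM. In the order DMSO, lapatinib combination, nilotinib combination and 1 µM THZ531, the summed level of 7 mesenchymal markers was 20300 to 24300, 26500 to 35000, 26000 to 32700 and 29800 to 32000 CPM, and that of 7 luminal markers 122 to 124, 198 to 208, 184 to 204 and 164 to 175 CPM. Of 7 haematopoietic markers, PTPRC (0.774 to 2.45 CPM) and CSF1R (0.586 to 1.4 CPM) were highest, the other 5 reached at most 0.637 CPM, and CD3E and MS4A1 reached at most 2 counts and 1 count. The haematopoietic sum was 2.08 to 2.87, 2.75 to 3.08, 2.66 to 3.41 and 3.29 to 3.85 CPM, and that of 4 endothelial markers 1.59 to 1.71, 2.11 to 2.78, 2.54 to 2.93 and 1.17 to 1.84 CPM. The mesenchymal and luminal sums of these treatments did not overlap those of DMSO. The same held for the endothelial sums of the combinations and the haematopoietic sum of 1 µM THZ531. The luminal sums of 0.1 µM THZ531 (131 to 141 CPM) and nilotinib alone (127 to 130 CPM) also lay above DMSO. Most of the luminal sum was KRT18, whereas GATA3, at 16.7 to 18.9 CPM in DMSO, reached down to 7.23 CPM in a treated library. The part of all these transcripts in the results was not tested. In bulk RNA fewer cells of a type and less RNA per cell cannot be told apart, and CPM values are relative to the other transcripts of a library.

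Basal levels were compared between genes per length, as RPKM, the CPM divided by the exon length in kilobases. In DMSO, CXCL8, a chemoattractant of neutrophils, was highest at 29.61 ± 4.03 RPKM (SD, n = 3, as for all values here), followed by NFKBIA at 14.1 ± 0.55, TNFAIP3 at 3.642 ± 0.236 and LIF at 2.686 ± 0.533 RPKM. CCL2 stood at 1.266 ± 0.18, IL6 at 1.029 ± 0.0398 and IL1B at 0.7042 ± 0.426 RPKM. CXCL2 (0.3648 ± 0.229), CXCL3 (0.22 ± 0.0936) and CXCL1 (0.05772 ± 0.0782) were lowest. Each gene from IL6 down to CXCL1 overlapped its neighbour in this order, so these neighbours do not differ beyond their spread, whereas all libraries of IL6 (0.9845 to 1.062 RPKM) lay above those of CXCL2, CXCL3 and CXCL1.

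**Figure D1:**
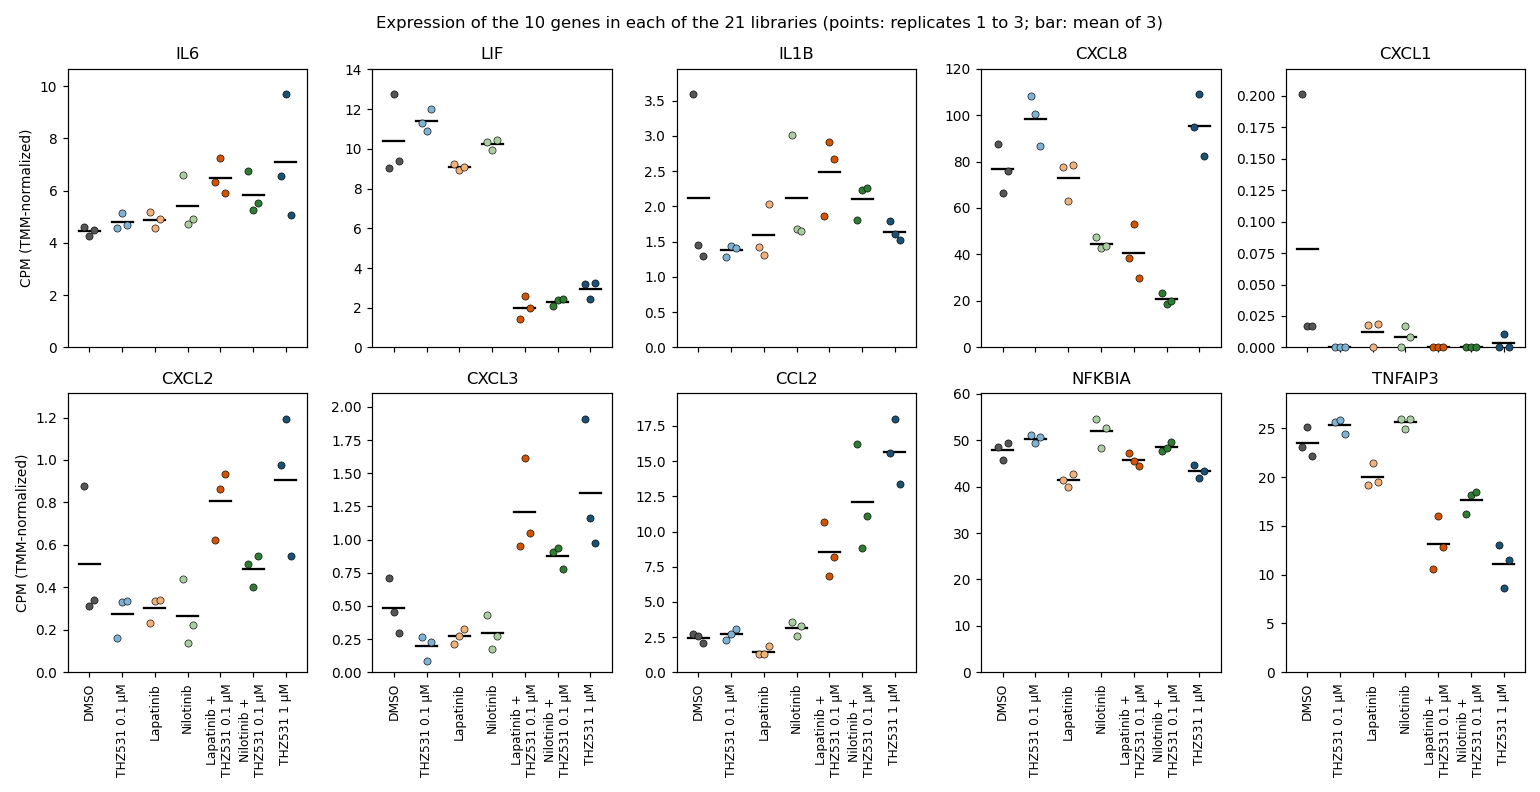
CPM (TMM-normalized, linear axes starting at 0) of the 10 genes in each of the 21 libraries, with points for replicates 1 to 3 and a bar for their mean. LIF sat between 1.442 and 3.252 CPM in the combinations and 1 µM THZ531 and between 8.94 and 12.77 CPM elsewhere, and CCL2 between 6.849 and 18.01 CPM against 1.291 to 3.579 CPM.

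Against DMSO, 1 of the 9 tested genes passed the test in the single treatments other than 1 µM THZ531, whereas with the combinations and 1 µM THZ531 some genes fell and others rose. With THZ531 and lapatinib, 3 of the 9 tested genes fell (LIF, CXCL8, TNFAIP3) and 3 rose (IL6, CXCL3, CCL2), at an adjusted p under 0.05 in the quasi-likelihood test of edgeR, adjusted by Benjamini-Hochberg over all genes tested. Over all genes this treatment lowered 37.8% and raised 34.3%, so these shares are near the background. With THZ531 and nilotinib, 3 fell (LIF, CXCL8, TNFAIP3) and 2 rose (CXCL3, CCL2), beside 37.3% and 33.7% of all genes. With 1 µM THZ531, 3 fell (LIF, NFKBIA, TNFAIP3) and 3 rose (IL6, CXCL3, CCL2), beside 36.8% and 33.1%. With 0.1 µM THZ531 and with lapatinib, none of the 9 genes passed the test. Over all genes, 0.1 µM THZ531 lowered 4.31% and raised 1.78%, and lapatinib lowered 0.0561% and raised 0.256%. At an unadjusted p under 0.05 the count was 2 with 0.1 µM THZ531 and 3 with lapatinib, and in DESeq2 it was 1 (CXCL3, adjusted p = 0.0126) and 0 after adjustment. Nilotinib lowered 1 gene, CXCL8, and raised none, beside 0.0998% and 0.243% of all. Scaled to the 13 mitochondrial mRNAs, the genes lower and higher were 4 and 1 in the lapatinib combination, 5 and 1 in the nilotinib combination and 4 and 2 with 1 µM THZ531, beside 58.4% and 5.3%, 55.9% and 4.83%, and 52.5% and 4.35% of all genes. The median log2 fold change (log2 FC) of the 9 genes was 0.226, -0.0167 and 0.316 in the lapatinib combination, the nilotinib combination and 1 µM THZ531, beside -0.0099, -0.0132 and -0.00955 over all genes. These 3 comparisons share the DMSO libraries.

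**Figure D2:**
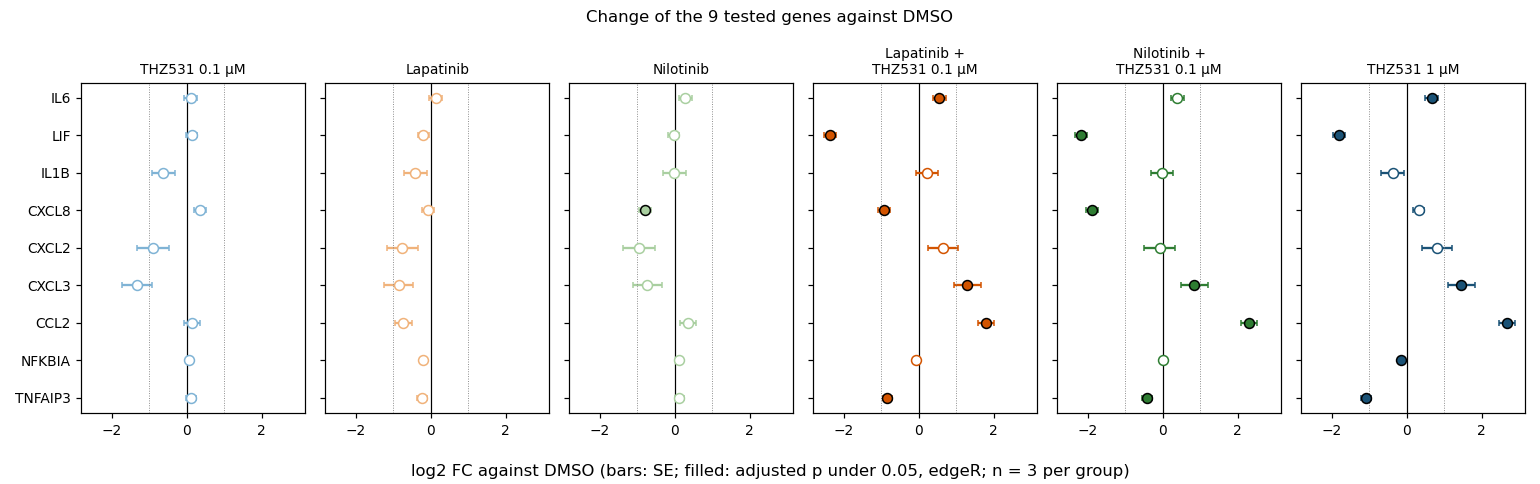
Log2 FC against DMSO of the 9 tested genes (x axis; bars are SE; n = 3 per group) in 6 panels, one for each treatment, with filled points for an adjusted p under 0.05 and dotted lines at -1 and 1. The filled points number 0, 0 and 1 in the single treatments with a low dose and 6, 5 and 6 in the combinations and 1 µM THZ531.

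Among the secreted cytokines, LIF, an IL6-family cytokine that acts through LIFR and IL6ST, fell most. Its level was 9.031, 12.77 and 9.385 CPM in the DMSO libraries, and 1.442, 2.571 and 1.982 CPM with THZ531 and lapatinib. It was 2.074, 2.377 and 2.452 CPM with THZ531 and nilotinib, and 3.191, 2.419 and 3.252 CPM with 1 µM THZ531. All 9 of these treated libraries lay below all DMSO libraries and below all libraries of the single treatments at a low dose. The log2 FC was -2.38 ± 0.164 (SE) with the lapatinib combination (adjusted p = 8.29e-11), -2.17 ± 0.161 with the nilotinib combination (2.85e-10) and -1.81 ± 0.158 with 1 µM THZ531 (3.93e-09). These falls passed the test under every scaling, test and left-out library tried. In 0.1 µM THZ531, LIF stood at 10.91 to 11.99 CPM and did not pass the test (log2 FC 0.13, 95% interval -0.18 to 0.45).

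IL6, which signals through IL6R and IL6ST, moved in the other direction and by less. It was 4.588, 4.254 and 4.493 CPM in DMSO, 6.315, 7.243 and 5.912 CPM with THZ531 and lapatinib, and 6.551, 9.698 and 5.049 CPM with 1 µM THZ531. It rose by 0.55 ± 0.174 on the log2 scale in the lapatinib combination (adjusted p = 0.00843) and by 0.68 ± 0.173 with 1 µM THZ531 (adjusted p = 0.0018), with no overlap of the libraries with DMSO. In the nilotinib combination it was 6.74, 5.251 and 5.509 CPM, again above all DMSO libraries, with a log2 FC of 0.39 ± 0.174 that did not pass the test (adjusted p = 0.0508). The sign in the lapatinib combination turned with scaling to the mitochondrial mRNAs (log2 FC -0.14, adjusted p = 0.552), which shifts the median of all genes by -0.682, and the call was lost with library size alone (log2 FC 0.22, adjusted p = 0.271). With 1 µM THZ531 the call was lost with mitochondrial scaling (log2 FC 0.13, adjusted p = 0.6). In the nilotinib combination IL6 passed under 7 of the 10 other settings, and when nilotinib replicate 1, THZ531 and nilotinib replicate 2, or 1 µM THZ531 replicate 2 or 3 was left out (adjusted p = 0.0119 to 0.0433). Neighbouring groups overlapped along the whole order of IL6 levels, from 7.099 ± 2.37 CPM with 1 µM THZ531 down to 4.445 ± 0.172 CPM in DMSO.

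IL1B, the precursor of secreted interleukin 1β, depended on 1 control library. It was 3.596 CPM in DMSO replicate 1 and 1.458 and 1.302 CPM in the others, and it did not pass the test in any treatment against DMSO. Its level was 1.868, 2.91 and 2.672 CPM with THZ531 and lapatinib, 1.804, 2.226 and 2.265 CPM with THZ531 and nilotinib, and 1.795, 1.602 and 1.519 CPM with 1 µM THZ531. All 9 treated libraries lay between the lower DMSO libraries and DMSO replicate 1. With all libraries the log2 FC was 0.23 ± 0.303 in the lapatinib combination (adjusted p = 0.511) and -0.02 ± 0.304 in the nilotinib combination (adjusted p = 0.964). Without DMSO replicate 1 they were 0.85 (adjusted p = 0.00604) and 0.60 (adjusted p = 0.0409). With mitochondrial scaling IL1B was instead lower than DMSO in the nilotinib combination (-0.66, adjusted p = 0.0313) and with 1 µM THZ531 (-0.95, adjusted p = 0.00284).

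Among the chemokines, CXCL8 separated the treatments. It was 87.36, 66.5 and 76.07 CPM in DMSO and 47.45, 42.68 and 43.5 CPM with nilotinib alone. It was 38.5, 53.02 and 30.04 CPM with THZ531 and lapatinib, 23.41, 18.73 and 20.18 CPM with THZ531 and nilotinib, and 94.67, 109.1 and 82.51 CPM with 1 µM THZ531. The combinations and nilotinib alone lay below all DMSO libraries, whereas 1 µM THZ531 overlapped DMSO. CXCL8 fell by 0.92 on the log2 scale (SE 0.16, adjusted p = 3.59e-05) in the lapatinib combination and by 1.88 (SE 0.165, adjusted p = 3.46e-09) in the nilotinib combination. With nilotinib alone it fell by 0.78 (SE 0.16, adjusted p = 0.0323), and this call was lost without any 1 of the DMSO or nilotinib libraries or 0.1 µM THZ531 replicate 2 (log2 FC -0.68 to -0.88, adjusted p = 0.0509 to 0.196). With 1 µM THZ531 the log2 FC was 0.32 (95% interval -0.02 to 0.66, adjusted p = 0.0823). It passed without DMSO replicate 1 (0.42, adjusted p = 0.0444), 1 µM THZ531 replicate 3 (0.41, adjusted p = 0.0447), or THZ531 and lapatinib replicate 2 or 3 (0.32, adjusted p = 0.0364 and 0.0462), and also with upper quartile scaling (0.52, adjusted p = 0.00623) and with only the groups compared (0.34, adjusted p = 0.0348). The libraries of 0.1 µM THZ531 were at 108.2, 100.6 and 86.6 CPM, and lapatinib alone was at 77.61, 63.07 and 78.54 CPM. Neither passed the test.

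CCL2, which attracts monocytes through CCR2, showed the largest rise. It was 2.725, 2.563 and 2.059 CPM in DMSO, 10.66, 6.849 and 8.194 CPM with THZ531 and lapatinib, and 16.25, 8.827 and 11.12 CPM with THZ531 and nilotinib. With 1 µM THZ531 it was 15.57, 18.01 and 13.39 CPM. All 9 libraries lay above every library of the other 4 groups. The fold against DMSO was 3.5 (log2 FC 1.81 ± 0.215, adjusted p = 2.64e-07), 4.92 (2.30 ± 0.216, adjusted p = 9.77e-09) and 6.39 (2.68 ± 0.218, adjusted p = 1.48e-09). These rises passed the test under every setting. With lapatinib alone CCL2 was 1.294, 1.291 and 1.835 CPM, below all DMSO libraries, with a log2 FC of -0.73 ± 0.226 that did not pass the test (adjusted p = 0.293).

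CXCL3 and CXCL2, close relatives that act through CXCR2, were low, at 10 to 182 counts per library for CXCL3 and 16 to 114 for CXCL2. CXCL3 was 0.7096, 0.4573 and 0.2978 CPM in DMSO, 0.9505, 1.619 and 1.047 CPM with THZ531 and lapatinib, and 0.9074, 0.9399 and 0.7808 CPM with THZ531 and nilotinib. It was 1.911, 1.163 and 0.9734 CPM with 1 µM THZ531, so all 9 treated libraries lay above all DMSO libraries. The log2 FC was 1.30 ± 0.356 (adjusted p = 0.00289), 0.84 ± 0.36 (adjusted p = 0.0437) and 1.46 ± 0.355 (adjusted p = 0.00111). The call in the nilotinib combination was lost without DMSO replicate 2 or 3, lapatinib replicate 2, nilotinib replicate 3 or any library of that combination (log2 FC 0.58 to 0.92, adjusted p = 0.0501 to 0.184), and also with library size alone (0.54, adjusted p = 0.2) and mitochondrial scaling (0.22, adjusted p = 0.584). The call in the lapatinib combination was lost with mitochondrial scaling (0.62, adjusted p = 0.0846), and that with 1 µM THZ531 passed under every setting. CXCL2 was 0.8789, 0.3106 and 0.3404 CPM in DMSO, and it was 0.6227 to 0.9352 CPM in the lapatinib combination and 0.5455 to 1.194 CPM with 1 µM THZ531. These groups overlapped and did not pass the test (log2 FC 0.66 ± 0.402 and 0.82 ± 0.399). Without DMSO replicate 1 they were 1.31 (adjusted p = 0.0085) and 1.47 (adjusted p = 0.00382), and without 1 µM THZ531 replicate 3 the latter was 1.08 (adjusted p = 0.0285). The latter also passed with upper quartile scaling (1.03, adjusted p = 0.0272), halved counts (0.84, adjusted p = 0.0487) and DESeq2 (0.85, adjusted p = 0.0476).

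CXCL1 was almost absent from these libraries. It had 25 counts in DMSO replicate 1, 2 counts in each other DMSO library and 0 to 2 counts in the 18 treated libraries. In the groups of 0.1 µM THZ531 and of both combinations it had 0 counts in all libraries, and a count of 0 allows up to 3 counts per library. No fold is given, since apart from 1 library all values lay under that limit. CXCL1 therefore says nothing of a change at this depth.

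The feedback inhibitors differed from each other. TNFAIP3 was 23.08, 25.14 and 22.18 CPM in DMSO, 10.61, 16.04 and 12.8 CPM with THZ531 and lapatinib, 16.2, 18.18 and 18.45 CPM with THZ531 and nilotinib, and 13.03, 8.661 and 11.47 CPM with 1 µM THZ531. All 9 treated libraries lay below all DMSO libraries. The log2 FC was -0.84 ± 0.129 (adjusted p = 8.57e-06), -0.41 ± 0.128 (adjusted p = 0.00714) and -1.09 ± 0.13 (adjusted p = 3.56e-07), and they passed the test under every setting. NFKBIA lay within 41.94 and 49.64 CPM in these 3 groups and 45.74 to 49.32 CPM in DMSO. Its log2 FC was -0.06 (95% interval -0.19 to 0.06) and 0.02 (-0.10 to 0.15) in the combinations. With mitochondrial scaling they were -0.75 (adjusted p = 9.67e-06) and -0.60 (adjusted p = 0.000211). With 1 µM THZ531 it was -0.14 (adjusted p = 0.0364), a call that was lost under 7 of the 10 other settings, and without DMSO replicate 1 or 3 or 1 µM THZ531 replicate 2 or 3 (adjusted p = 0.0731 to 0.124), and the sign turned with upper quartile scaling (log2 FC 0.06). With lapatinib alone NFKBIA was 39.99 to 42.69 CPM, below all DMSO libraries, and did not pass the test (log2 FC -0.21 ± 0.0588, adjusted p = 0.218).

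DMSO replicate 1 stood apart in the less abundant genes, and its values touch each result on them. IL1B was 2.47 times, CXCL2 2.58 times and CXCL3 1.55 times as high there as in the next DMSO library. In contrast, IL6, CXCL8, CCL2, NFKBIA and TNFAIP3 lay within 1.15 times of the next DMSO library or below. Genes at least 2-fold above both other libraries of the group numbered 117 in this library, or 0.73% of those tested, within the 60 to 172 seen across all libraries. LYZ, which encodes lysozyme of myeloid cells, had 79 counts in this library and at most 12 in any other, and whether other cells contributed was not tested. Without this library, 3 of the 9 genes were lower and 5 higher in the lapatinib combination, beside 36.1% and 31.8% of all genes in that fit. In the nilotinib combination 3 were lower and 3 higher, beside 35.5% and 31.3%, and with 1 µM THZ531 2 were lower and 5 higher, beside 35.1% and 30.5%.

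**Figure D3:**
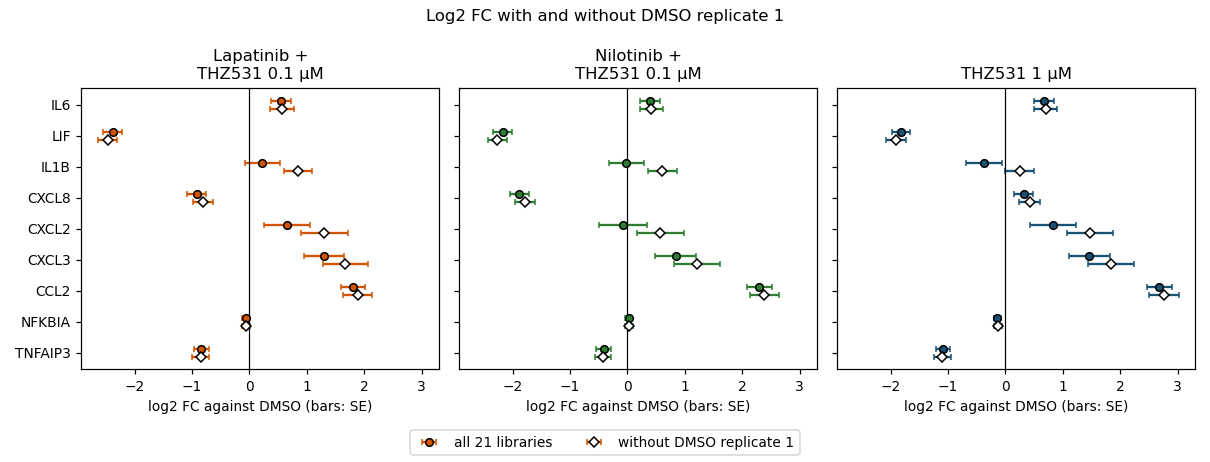
Log2 FC against DMSO (x axis; bars are SE) of the 9 tested genes with all 21 libraries (circles) and without DMSO replicate 1 (diamonds), in panels for the combinations and 1 µM THZ531. IL1B and CXCL2 moved to the right in each panel, IL1B in the nilotinib combination from -0.02 to 0.60. CXCL3 also moved to the right, by less, whereas LIF, CXCL8, CCL2 and TNFAIP3 stayed near their values.

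The combinations were then compared with 1 µM THZ531, which asks whether the low dose with a kinase inhibitor gave the response of the higher dose. With lapatinib, 3 of 9 genes were lower than with 1 µM THZ531 and none was higher, beside 16.1% and 12.8% of all genes. CXCL8 was lower by 1.24 ± 0.161 on the log2 scale (adjusted p = 1.03e-05) and CCL2 by 0.87 ± 0.203 (adjusted p = 0.0027), each with no overlap of the libraries. LIF was lower by 0.56 ± 0.166 (adjusted p = 0.0141), although its libraries overlapped, and this call was lost without THZ531 and lapatinib replicate 1 or 1 µM THZ531 replicate 1 or 3 (adjusted p = 0.0518 to 0.0822) and with only the groups compared (adjusted p = 0.148). TNFAIP3 did not pass the test (log2 FC 0.25, adjusted p = 0.168) but did without THZ531 and lapatinib replicate 1 (0.38, adjusted p = 0.0283) or 1 µM THZ531 replicate 1 (0.39, adjusted p = 0.0416). With nilotinib, 1 gene was lower and 2 were higher, beside 13% and 11.2%. CXCL8 was lower by 2.20 ± 0.167 (adjusted p = 5.01e-08), and TNFAIP3 was higher by 0.67 ± 0.13 (adjusted p = 0.00065). NFKBIA was higher by 0.17 ± 0.0589 (adjusted p = 0.047), a call lost in 16 of 21 fits without a library, all but those without DMSO replicate 2, nilotinib replicate 1 or 2, THZ531 and lapatinib replicate 1 or 1 µM THZ531 replicate 1 (log2 FC 0.14 to 0.18, adjusted p = 0.0524 to 0.147). IL6 did not pass the test in either comparison, with 95% intervals of -0.50 to 0.24 and -0.65 to 0.09, but did in the comparison with nilotinib when 1 µM THZ531 replicate 3 was left out (log2 FC -0.48, adjusted p = 0.0356). CCL2 in the nilotinib combination (log2 FC -0.38, adjusted p = 0.203) passed without replicate 1 of that combination (-0.65, adjusted p = 0.0201). For CXCL3 the intervals were -0.89 to 0.57 and -1.36 to 0.12.

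The combinations differed from each other in 1 gene. CXCL8 was higher with lapatinib than with nilotinib, at 40.52 ± 11.6 against 20.77 ± 2.39 CPM, a log2 FC of 0.96 ± 0.162 (adjusted p = 0.00449), beside 0.736% of all genes lower and 0.73% higher. The adjusted p was 0.204 when only the 6 libraries compared entered the fit, with a log2 FC of 0.96. TNFAIP3 was lower with lapatinib by 0.42 ± 0.129 with no overlap of the libraries, which did not pass the test (adjusted p = 0.123) but did without THZ531 and lapatinib replicate 2 (log2 FC -0.59, adjusted p = 0.0426), without 1 µM THZ531 replicate 2 (-0.42, adjusted p = 0.0416) and in DESeq2 (-0.42, adjusted p = 0.044). The intervals of the difference were -0.56 to 0.16 for LIF, -0.22 to 0.53 for IL6 and -0.93 to -0.06 for CCL2 (adjusted p = 0.285).

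Against 0.1 µM THZ531, the addition of lapatinib changed all 9 tested genes, 4 lower (LIF, CXCL8, NFKBIA, TNFAIP3) and 5 higher (IL6, IL1B, CXCL2, CXCL3, CCL2), beside 36.1% and 35% of all genes. The addition of nilotinib lowered LIF, CXCL8 and TNFAIP3 and raised CXCL3 and CCL2, beside 35.6% and 34.3%. CXCL3 was 0.2664, 0.08732 and 0.2298 CPM with 0.1 µM THZ531, below all DMSO libraries (log2 FC -1.33 ± 0.403, adjusted p = 0.0579). Its rise on addition of the inhibitors was thus 2.63 ± 0.394 (adjusted p = 6.2e-06) and 2.17 ± 0.397 (adjusted p = 7.07e-05), more than its difference from DMSO. For CXCL2 the rise with lapatinib was 1.54 ± 0.425 (adjusted p = 0.00307), a call lost with mitochondrial scaling (0.84, adjusted p = 0.0504). With lapatinib, IL6 (log2 FC 0.44, adjusted p = 0.0299) lost its call without 0.1 µM THZ531 replicate 1 or 3 or THZ531 and lapatinib replicate 2 (adjusted p = 0.0733 to 0.117). IL1B (0.85, adjusted p = 0.02) lost it without 0.1 µM THZ531 replicate 1 or THZ531 and lapatinib replicate 2 or 3 (adjusted p = 0.0549 to 0.0754). The call of IL1B was also lost with library size alone and with mitochondrial scaling (0.15, adjusted p = 0.663). NFKBIA (-0.14, adjusted p = 0.043) lost it without any 0.1 µM THZ531 library, THZ531 and lapatinib replicate 2 or 3, nilotinib replicate 1 or THZ531 and nilotinib replicate 2 (adjusted p = 0.0502 to 0.128), and its sign turned with upper quartile scaling (0.05). NFKBIA also lost its call with DESeq2's size factors, no filter, at least 10 counts in every library, DESeq2, only the groups compared and halved counts. The sign of IL6 turned with mitochondrial scaling (-0.24), and its call was lost with library size alone. On addition of nilotinib IL1B did not pass the test (0.60, adjusted p = 0.0909) but did without DMSO replicate 1 (adjusted p = 0.0223).

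An interaction term tested whether a combination differed from the sum, on the log2 scale, of its single treatments. For lapatinib, 3 genes lay below the sum (LIF, CXCL8, TNFAIP3) and 4 above it (IL1B, CXCL2, CXCL3, CCL2), beside 32% and 28.2% of all genes. For nilotinib, 3 lay below (the same names) and 3 above (CXCL2, CXCL3, CCL2), beside 31.2% and 25.6%. The sum for LIF was -0.06 with lapatinib and 0.11 with nilotinib, whereas the combinations stood at -2.38 and -2.17, so the interaction was -2.32 ± 0.22 (adjusted p = 2.3e-08) and -2.29 ± 0.218 (adjusted p = 2.8e-08). For CCL2 the interaction was 2.39 ± 0.31 (adjusted p = 1.63e-06) and 1.80 ± 0.302 (adjusted p = 4.21e-05). For CXCL8 it was -1.21 ± 0.225 (adjusted p = 0.000116) and -1.46 ± 0.227 (adjusted p = 1.69e-05), on top of the fall with nilotinib alone. IL6 did not pass this test, with intervals of -0.22 to 0.83 and -0.53 to 0.53. DMSO enters the sum through both single treatments, so a high DMSO library lowers it. Without DMSO replicate 1 the interaction of IL1B with lapatinib was 0.64 (adjusted p = 0.109) and that of CXCL2 with nilotinib 1.11 (adjusted p = 0.106), and both calls were lost. That of IL1B was also lost with library size alone and with mitochondrial scaling (0.71, adjusted p = 0.127). That of CXCL2 was also lost without 0.1 µM THZ531 replicate 1 (1.48, adjusted p = 0.0538) or nilotinib replicate 2 (1.44, adjusted p = 0.0553). NFKBIA did not pass this test with nilotinib (-0.17, adjusted p = 0.0907) but did without nilotinib replicate 2 (-0.22, adjusted p = 0.0408). Both interactions share the DMSO and 0.1 µM THZ531 libraries.

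**Figure D4:**
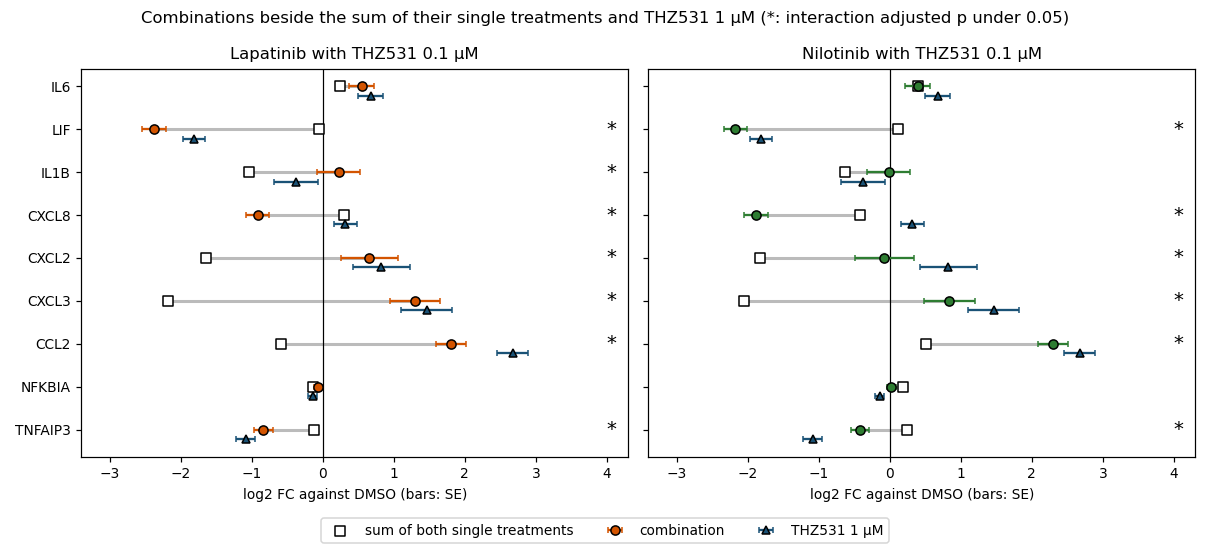
Log2 FC against DMSO (x axis; bars are SE) of the 9 tested genes in the combination (circles), as the sum of both single treatments (squares, drawn without error) and with 1 µM THZ531 (triangles), for lapatinib on the left and nilotinib on the right. Stars mark an interaction with an adjusted p under 0.05, for 7 genes with lapatinib and 6 with nilotinib, and the circles of CXCL8 lie at -0.92 and -1.88 while its triangle lies at 0.32.

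The other genes of the pathway were taken as 8 lists of 83 genes, of which 65 were tested. In the lapatinib combination 38 fell and 16 rose, in the nilotinib combination 40 fell and 18 rose, and with 1 µM THZ531 29 fell and 13 rose. Over all genes the shares lower and higher were 37.8% and 34.3%, 37.3% and 33.7%, and 36.8% and 33.1% in these comparisons, beside which the counts of each list are to be read. With 0.1 µM THZ531 2 fell and 3 rose, with lapatinib 1 fell and 1 rose, and with nilotinib 0 passed the test. Scaled to the mitochondrial mRNAs, 50 fell and 4 rose, 49 fell and 5 rose, and 49 fell and 3 rose in the combinations with lapatinib and nilotinib and with 1 µM THZ531. With library size alone these were 42 and 12, 42 and 13, and 41 and 9, and with upper quartile scaling 33 and 19, 35 and 18, and 22 and 19. List medians of the log2 FC are given in the order lapatinib combination, nilotinib combination and 1 µM THZ531, to be read beside -0.0099, -0.0132 and -0.00955 over all genes, and single genes are given for the lapatinib combination.

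Of 5 NF-κB subunits, 4 fell and 1 rose in each combination, and 4 fell with 1 µM THZ531, beside at most 37.8% of all genes lower, with list medians of -1.34, -1.11 and -1.08. RELA, the main activating subunit, fell by 1.39 ± 0.0653 (adjusted p = 2.68e-13). NFKB2, the subunit of the non-canonical arm, fell by 1.56 ± 0.109 (adjusted p = 1.05e-10). NFKB1, which pairs with RELA, rose by 0.34 ± 0.0651 (adjusted p = 0.00011), but its sign turned with mitochondrial scaling (-0.35, adjusted p = 0.02). Of 18 genes of the kinase arm, 15 fell and 2 rose, 14 fell and 2 rose, and 13 fell and 1 rose in the lapatinib combination, the nilotinib combination and 1 µM THZ531, beside 37.8%, 37.3% and 36.8% of all genes lower and 34.3%, 33.7% and 33.1% higher, with medians of -0.609, -0.588 and -0.45. TAB1, an activator of the kinase TAK1, fell by 4.003 ± 0.131 (adjusted p = 1.95e-15), the largest fall of this list, whereas its relative TAB2 rose by 0.85 ± 0.0958 (adjusted p = 1.25e-07), a call lost with mitochondrial scaling (0.16). IRAK1, a kinase below interleukin 1 and Toll-like receptors, rose by 0.45 ± 0.0544, which turned to -0.24 with mitochondrial scaling, and BIRC2, a ubiquitin ligase of the TNF receptor complex, fell by 1.17 ± 0.0849.

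Of 6 tested upstream receptors, 5 fell in the lapatinib combination, 6 in the nilotinib combination and 4 with 1 µM THZ531, which raised 1, beside 37.8%, 37.3% and 36.8% of all genes lower, with medians of -1.17, -0.988 and -0.569. TNFRSF1A, the main TNF receptor, fell by 2.63 ± 0.114 (adjusted p = 8.92e-14), IL1R1, the receptor of interleukin 1, by 1.63 ± 0.0737 and its partner IL1RAP by 0.28 ± 0.0811. The call of IL1RAP was lost with upper quartile scaling (adjusted p = 0.177). With 1 µM THZ531 IL1RAP rose instead (log2 FC 0.22, adjusted p = 0.023). LTBR, the lymphotoxin receptor, did not pass the test (log2 FC -0.17, adjusted p = 0.0698) but did without DMSO replicate 1 (-0.24, adjusted p = 0.0193) or 1 µM THZ531 replicate 2 (-0.17, adjusted p = 0.0439). Of 4 tested receptors of the cytokines themselves, 1 fell and 2 rose, 1 fell and 3 rose, and 1 fell and 2 rose, beside 34.3%, 33.7% and 33.1% of all genes higher, with medians of 0.305, 0.459 and 0.386. IL6R fell by 1.65 ± 0.123 (adjusted p = 2.92e-10), IL6ST, the shared signal chain of IL6 and LIF, rose by 0.55 ± 0.086 and turned to -0.14 with mitochondrial scaling, and ACKR3, an atypical chemokine receptor, rose by 1.01 ± 0.273, a call lost with that scaling (0.32). LIFR did not pass the test (log2 FC 0.06, adjusted p = 0.58), and its sign turned with mitochondrial scaling (-0.62) and library size alone (-0.27). CXCR1 and CXCR2, the receptors of CXCL8, reached at most 2 and 4 counts and were not tested.

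Of 9 other feedback inhibitors, 3 fell and 5 rose in the lapatinib combination, 3 fell and 6 rose in the nilotinib combination and 2 fell and 4 rose with 1 µM THZ531, beside 37.8% and 34.3%, 37.3% and 33.7%, and 36.8% and 33.1% of all genes, with medians of 0.227, 0.253 and -0.111. NFKBIE, which encodes IκBε, fell by 2.55 ± 0.168 (adjusted p = 4.21e-11), beside the small change of NFKBIA. CYLD, a deubiquitinase, fell by 0.35 ± 0.0653, IER3, an early response gene, rose by 2.13 ± 0.233 (adjusted p = 8.3e-08), and TNIP1, a partner of A20, did not pass the test (log2 FC -0.03, adjusted p = 0.702). With library size alone and with mitochondrial scaling TNIP1 passed the test as lower. Of 7 genes for proteins that bind AU-rich elements, 3 fell and 3 rose, 4 fell and 3 rose, and 2 fell and 2 rose, with medians of 0.226, -0.148 and -0.144, and the counts in the lapatinib combination are near the shares of all genes. ZFP36L1, which promotes decay of such transcripts, rose by 1.57 ± 0.143 (adjusted p = 5.63e-09) and KHSRP by 0.64 ± 0.104, which turned to -0.049 with mitochondrial scaling, whereas TIA1 fell by 1.37 ± 0.107 and HNRNPD by 0.33 ± 0.0618.

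Of 11 other target genes, 5 fell and 3 rose in each combination, and 2 fell and 3 rose with 1 µM THZ531, beside 37.8% and 34.3%, 37.3% and 33.7%, and 36.8% and 33.1% of all genes, with medians of -0.0868, -0.284 and -0.136. The counts in the combinations are near those shares. TRAF1, a signalling adaptor, fell by 3.28 ± 0.276 (adjusted p = 1.74e-09) and PLAU, the urokinase, by 0.38 ± 0.0716. PTGS2, the inducible cyclooxygenase, rose by 0.99 ± 0.27 (adjusted p = 0.00268) and SOD2, a mitochondrial dismutase, by 0.80 ± 0.0736, both calls lost with mitochondrial scaling (0.32 and 0.12). Of 16 other cytokines 5 were tested, and 2 fell in the lapatinib combination, 3 in the nilotinib combination and 1 with 1 µM THZ531, beside 37.8%, 37.3% and 36.8% of all genes lower, with medians of -0.327, -0.516 and -0.58. Those in the nilotinib combination included CXCL10 (log2 FC -2.34, adjusted p = 0.0374), which had 39 counts in DMSO replicate 1 and at most 14 in any other library. IL11, an IL6-family cytokine, fell by 0.89 ± 0.134 (adjusted p = 6.33e-06), and CSF1, the macrophage growth factor, by 0.33 ± 0.119 (adjusted p = 0.0185), a call lost without DMSO replicate 2 (-0.27, adjusted p = 0.0744), without THZ531 and lapatinib replicate 1 (-0.24, adjusted p = 0.103) and with upper quartile scaling (-0.17, adjusted p = 0.189). TNF and CCL5 had 0 counts in all libraries.

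**Figure D5:**
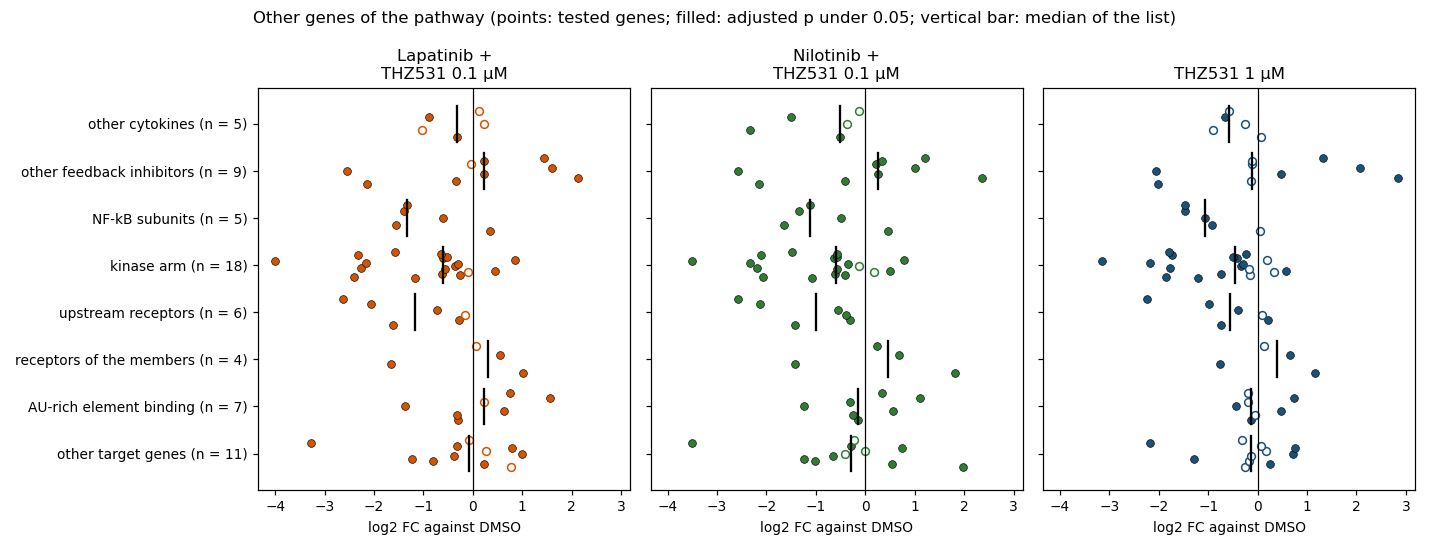
Log2 FC against DMSO (x axis) of the 65 tested genes in 8 lists (rows), in panels for the combinations and 1 µM THZ531, with filled points for an adjusted p under 0.05 and a vertical bar at the list median. The NF-κB subunits have medians of -1.34, -1.11 and -1.08, and the other feedback inhibitors 0.227, 0.253 and -0.111.

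Across the 21 libraries, the protein-coding genes whose log2 CPM was most like that of each tested cytokine or inhibitor were sought among 10451 genes. This is a description over libraries that share treatments. The 10 genes themselves, the pathway lists and the cell type markers were left out of the search, so none of them could appear as a match. LIF was most like BCAR1 and ELF4 (Pearson r 0.994 for each), CCL2 most like TSPAN9 and LASP1 (0.97 for each) and TNFAIP3 most like BRF1 (0.967) and MRTFA (0.965). CXCL3 was most like COL8A2 (0.941) and MATN2 (0.925), and COL8A2 was also nearest to CXCL2 (0.825). CXCL8 was most like ADCY6 (0.923) and SYT1 (0.908), IL6 most like RBBP8 (0.823) and CYFIP2 (0.822) and NFKBIA most like KIAA0930 (0.778) and SPHK1 (0.744). IL1B had no close match, with 0.556 for DEPP1 and 0.555 for SPACA9. No 2 of the 9 tested genes other than CXCL2 and CXCL3 had any of their 2 nearest genes in common, and CXCL1 was not searched.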

How the data were processed

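RNA of Hs578T cells was measured in 21 libraries, and groups and replicates came from the labels. The authors deposited raw counts per gene, which per the labels came from unstranded polyA-selected paired-end reads of 100 bases aligned to GRCh38 with HISAT2 2.1.0 and counted with featureCounts, and the labels also name DESeq2. Neither the annotation nor whether a count stands for a pair or for 1 mate is given in the sources used here. Counts of 2 outnumbered counts of 1 (23225 against 10446 values), so counts may overstate the number of independent fragments, and halved counts were tried. The study describes independent experiments, and the labels do not say that a replicate number marks one. P-values of the main fit set differences between group means against the spread between libraries within groups, estimated over all 21 libraries.

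Counts were filtered with filterByExpr, scaled with TMM and fitted with edgeR 4.0.16 (R 4.3.3) on all 21 libraries with 1 mean per group, and 13 contrasts were tested with glmQLFTest over 16036 genes. Log2 CPM used a prior count of 2, and RPKM used GENCODE v44 exon lengths. RefSeq symbols matched 27745 of 28395 genes. A gene was called at an adjusted p under 0.05. The scripts were tested on simulated data. Replicates were distinct libraries (log2 CPM correlation 0.990 to 0.9945), and 0 columns were left unused.

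The members and lists were chosen with earlier results of these data known. Of each list, the text names the 2 tested genes with the highest mean log2 CPM and those with the lowest and highest called log2 FC in the lapatinib combination. For likeness it names the 2 nearest protein-coding genes whose mean log2 CPM reached 1, outside the members, the lists and the cell type markers. The 5 genes overlapping members on the other strand, LYZ and other cytokines high in DMSO replicate 1 were chosen after their values were seen. Alternatives were DESeq2's size factors, library size alone, upper quartile scaling, scaling to the 13 mitochondrial mRNAs, no filter, at least 10 counts in every library, a block for the replicate number, the Wald test of DESeq2 1.42.0, only the groups compared, halved counts and leaving out each library.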

Additional observations from a re-analysis of the deposited data

Results flagged for a closer look

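The level of CXCL8 differed between the combinations, being higher with lapatinib than with nilotinib by a log2 FC of 0.9639 (adjusted p = 0.00449). With only the groups compared the adjusted p was 0.204. Without THZ531, the log2 FC of CXCL8 against DMSO was -0.783 with nilotinib and -0.06891 with lapatinib.

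The effect of lapatinib differed between cells with and without 0.1 µM THZ531, by the interaction term, in 7 genes. The interaction (log2) was -2.318 for LIF, 1.261 for IL1B, -1.212 for CXCL8, 2.299 for CXCL2, 3.484 for CXCL3, 2.393 for CCL2 and -0.7181 for TNFAIP3. Beside them, 60.3% of all genes passed the same test. The call of IL1B was lost without DMSO replicate 1, with library size alone and with mitochondrial scaling.

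The effect of nilotinib differed in the same way in 6 genes, with an interaction of -2.287 for LIF, -1.462 for CXCL8, 1.756 for CXCL2, 2.899 for CXCL3, 1.796 for CCL2 and -0.6496 for TNFAIP3, beside 56.8% of all genes. For IL1B it was 0.61 and did not pass the test (adjusted p = 0.239). The call of CXCL2 was lost without DMSO replicate 1, 0.1 µM THZ531 replicate 1 or nilotinib replicate 2. Groups of 3 libraries were not searched for outlying samples by rule.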

How the results depend on the processing

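Of 3627 refits of a gene in a contrast, 3479 kept their direction and side of the threshold or did not pass the test in either fit, 84 lost the call, 55 gained one and 9 changed sign with a call in at least 1 of the fits. For 29 genes of the pathway lists in the lapatinib combination, 875 of 898 refits kept their call, 9 lost it, 8 gained one and 6 changed sign, all 6 with mitochondrial scaling or library size alone: NFKB1 (-0.3497), IRAK1 (-0.238), IL6ST (-0.139), KHSRP (-0.0492) and LIFR (-0.6234 and -0.2652). Relative to TMM, scaling to the mitochondrial mRNAs shifted the median log2 FC of all genes by -0.682, -0.62 and -0.543 in the lapatinib combination, the nilotinib combination and 1 µM THZ531, library size alone by -0.327, -0.302 and -0.259, and upper quartile scaling by 0.157, 0.14 and 0.202. With mitochondrial scaling the genes lower and higher than DMSO were 4 and 1, 5 and 1, and 4 and 2, in place of 3 and 3, 3 and 2, and 3 and 3. The direction then turned for IL6 in the lapatinib combination against DMSO (-0.135) and against 0.1 µM THZ531 (-0.2447), and for NFKBIA in the nilotinib combination (-0.6027) and in its interaction with lapatinib (-0.4732). With library size alone it turned for NFKBIA in the nilotinib combination (-0.28) and in the interaction with lapatinib (-0.2252). With upper quartile scaling it turned for NFKBIA with 1 µM THZ531 against DMSO (0.05834) and in the lapatinib combination against 0.1 µM THZ531 (0.05212). Without DMSO replicate 1 it turned for IL1B in the nilotinib combination (0.6047, and -0.2698 to 0.6047 over left-out libraries).

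The number of genes called with 0.1 µM THZ531 was 1, CXCL3, in place of 0 with upper quartile scaling, mitochondrial scaling, no filter and DESeq2, and 0 to 1 over left-out libraries. Between the combinations it was 2 with DESeq2 and 0 with only the groups compared, in place of 1, and 1 to 2 over left-out libraries. Without a library it ranged from 0 to 1 with nilotinib, 6 to 8 in the lapatinib combination, 4 to 6 in the nilotinib combination and 5 to 7 with 1 µM THZ531. Deviations of libraries with the same replicate number correlated with a median r of 0.239 (lowest -0.83), and 36 of 63 pairs exceeded 0.1. For different numbers the median was -0.0925 (lowest -0.84), and 50 of 126 pairs exceeded 0.1. On average, 8 of 21 libraries were closest to their own number. These values do not settle whether the replicate number pairs the samples. With the number as a block the nilotinib combination had 6 genes called in place of 5, IL6 being added (log2 FC 0.39, adjusted p = 0.0471), LTBR passed in the lapatinib combination (adjusted p = 0.04), and the other counts of the 9 genes stayed. At this depth CXCL1 could not be tested. With no filter 23082 genes were tested, and CXCL1 then passed in the lapatinib combination (adjusted p = 0.011), the nilotinib combination (0.0111) and 1 µM THZ531 (0.035), with 25 counts in DMSO replicate 1 and 2 in each other DMSO library.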

Other observations

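The high values of DMSO replicate 1 extended to other cytokine transcripts, which were looked at after the values of IL1B and CXCL1 had been seen. Of the 10 genes and the 16 other cytokines, 24 had a count, and 7 of these had their highest CPM of all 21 libraries there, beside 2.9% of all genes tested and 3.35% of all genes with a count. These were IL1B (3.6 CPM, at most 3.01 elsewhere), CXCL1 (0.202, at most 0.0184), CXCL5 (0.129, at most 0.0219), CXCL10 (0.314, at most 0.147), CXCL11 (0.266, at most 0.212), CCL20 (0.185, at most 0.164) and TNFSF15 (0.314, at most 0.0177). All but IL1B had at most 39 counts there. CXCL10 and CXCL11 encode chemokines induced by interferon. LYZ had 79 counts there and a median of 4 over all libraries. This library also had the highest total count of the series. The part of any of these in the comparisons with DMSO was not tested beyond leaving the library out.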
